A study of Rattus norvegicus with 21 samples.

Results

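The comparison described here set SFSN-EC against SFSN-Ot, by RNA sequencing of mesenchymal stem cells from rat bone marrow, which are stromal cells able to become bone, cartilage or fat cells. Its libraries were chosen by their labels, 3 of SFSN-EC and 3 of SFSN-Ot among 21 libraries, and all 9998 genes in hand belong to it. SFSN-EC is the group that the submitters named for endothelial cells and SFSN-Ot the group that they named for osteoblasts. Both carried the treatment label SFSN and a wild-type genotype, as did SFSN-TC, SFSN-FB, SFSN-Neu and SFSN-Adipo, named for tendon cells, fibroblasts, neuron-like cells and adipocytes in that order, while Control was wild type with no treatment named. The series title expands the letters as self-feedback synaptic networks, and the labels do not say what was done to each group, for how long, at what age of the animals, or how a fate was set. The library names begin with CD31 for SFSN-EC and RUNX2 for SFSN-Ot, an endothelial surface protein and a transcription factor of bone, without saying what these names stand for, and the genes of both names fall in the part of the alphabet that was not analysed here.

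Endothelial cells line blood vessels and are known by junction proteins such as VE-cadherin (Cdh5), by receptors for vascular endothelial growth factor (Kdr, Flt1) and by transcription factors of the ETS family. Osteoblasts lay down bone matrix, which holds type I collagen, bone sialoprotein (Ibsp) and osteocalcin (Bglap), and they carry alkaline phosphatase (Alpl), which frees phosphate for mineral. Marrow stromal cells can also take up fat and turn on adipocyte genes, and in culture they respond within minutes to hours to stress, growth factors and medium through immediate early genes, chemokines and the sterol and amino acid pathways. The comparison asks which genes separate cells labelled with the endothelial fate from cells labelled with the osteoblast fate.

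Between 8543246 and 8810129 counts fell on these genes in SFSN-EC libraries, against 8467908 to 8684980 in SFSN-Ot libraries. Levels are given as CPM, the counts scaled to a common total over the genes in hand and by TMM (trimmed mean of M values), in the order of libraries 1, 2 and 3. SFSN-EC 1 stood apart from SFSN-EC 2 and 3: the chi-square of their counts per degree of freedom was 42.58 and 41.43, against 2.165 between SFSN-EC 2 and 3. Among SFSN-Ot libraries it was 3.072 for 1 and 2, 9.013 for 1 and 3 and 13.52 for 2 and 3. The deviation went with gene length. In SFSN-EC 1 the quintile of genes of shortest effective length lay a median of 0.30 above the mean of the 6 libraries (log2 scale). The longest quintile lay at -0.236. In SFSN-EC 2 and 3 the shortest quintile lay at -0.096 and -0.093, and in SFSN-Ot 3 it lay at 0.098. No label states that the replicates of a group were separate cultures or animals, and a p-value therefore measures only the spread between libraries. In the main fit that spread was estimated within all 7 groups, from 21 libraries, and not from the 6 compared alone. In bulk RNA fewer cells of a type and less RNA per cell cannot be told apart.

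**Figure D1:**
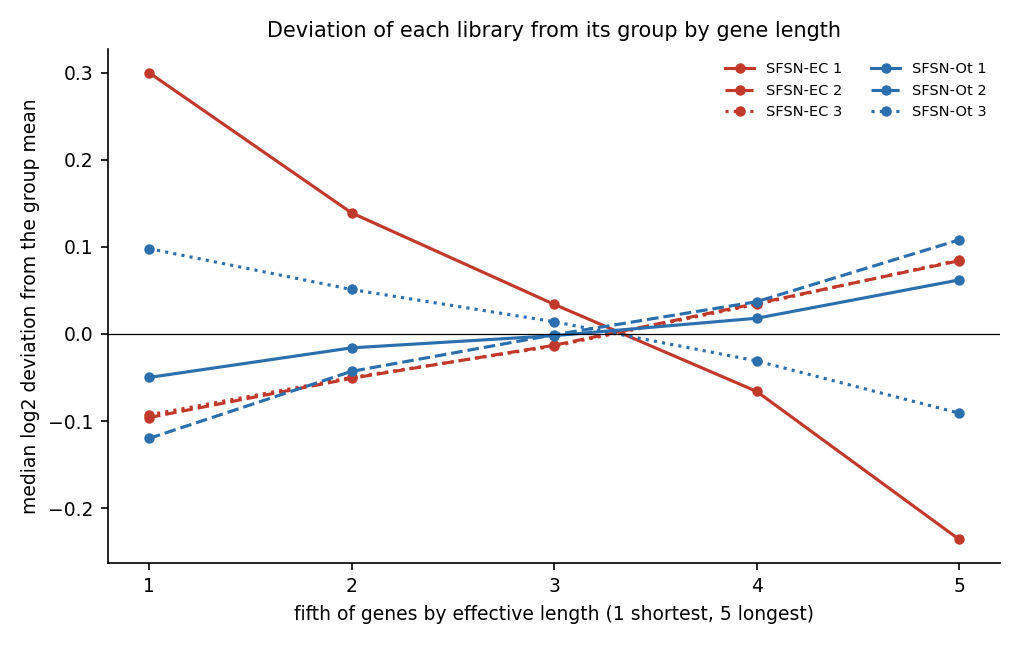
Median deviation from the mean of the 6 SFSN-EC and SFSN-Ot libraries (log2 scale) in quintiles of genes by effective length, 1 line per library. The axis label and title name the group in place of the 6 libraries. SFSN-EC 1 runs from 0.30 in the shortest quintile to -0.236 in the longest, while SFSN-EC 2 and 3 run the other way.

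Of 6659 genes tested, 925 (13.9%) were called at an adjusted p under 0.05 (Benjamini-Hochberg, edgeR quasi-likelihood test). Higher in SFSN-EC were 477 genes (7.16%) and lower were 448 (6.73%). Most differences were small: the median absolute log2 fold change of the called genes was 0.42, with quartiles of 0.28 and 0.63. At least 2-fold apart were 81 called genes, 44 higher and 37 lower in SFSN-EC. In 904 of the 925 the 3 SFSN-EC libraries did not overlap the 3 SFSN-Ot libraries, and over all genes tested 1659 (24.9%) did not overlap. The genes higher in SFSN-EC included 12 of 17 adipocyte genes, 9 of 21 immediate early genes and the chemokine genes Cxcl1 and Cxcl2. Those lower included 10 of 14 genes of cholesterol synthesis and uptake, 5 aminoacyl-tRNA synthetases, 5 of 9 clock genes, elastin and 4 of 22 macrophage and leukocyte genes. Some of these lists held calls the other way. Lower were 2 immediate early genes, and higher were 3 genes of the list that holds the synthetases, 1 clock gene and 1 leukocyte gene. With all counts scaled by library totals in place of TMM, 578 of 929 calls were higher and 351 lower (62.2% higher, against 51.6% with TMM), and with the spread estimated from the 6 libraries alone 184 genes were called.

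**Figure D2:**
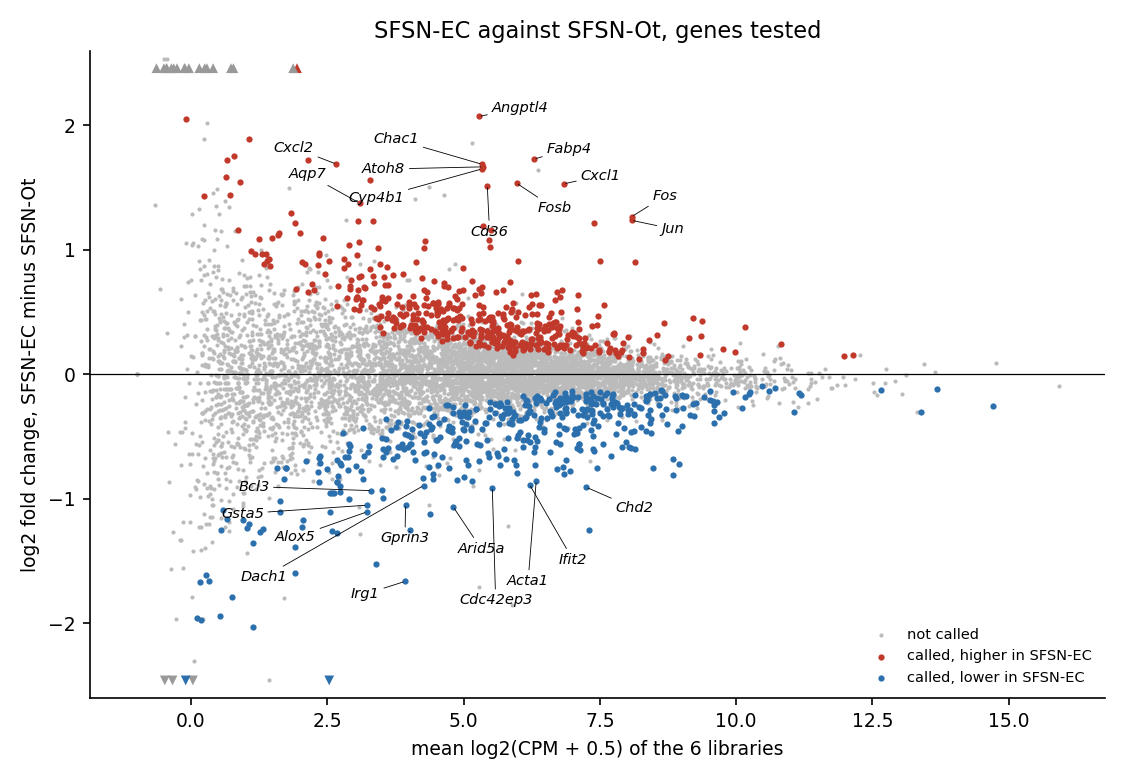
Each point is a gene: mean level (log2 CPM) on the horizontal axis and log2 fold change SFSN-EC minus SFSN-Ot on the vertical axis, called genes in colour. The vertical axis ends at 2.5, and 23 genes past it, 3 of them called, are drawn as triangles at the edge. The 477 genes called higher and the 448 called lower lie on both sides of 0, Angptl4 at 2.07 and Irg1 at -1.66.

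No gene of the endothelial list was called higher in SFSN-EC. Of its 25 genes 24 were in the table, and 18 had enough counts to be tested. None was called higher (7.16% over all genes tested), 2 were called lower (11.1%, against 6.73% over all genes tested) and 16 were not called (edgeR; 0 higher and 4 lower at an unadjusted p under 0.05, and 0 higher and 1 lower with DESeq2), with a median log2 fold change of -0.10 (0.003 over all genes tested). The 6 members with too few counts to test held at most 7 counts in a library, and 4 of them are given here. Cdh5 had 1, 2 and 0 counts in SFSN-EC libraries, against 0, 1 and 1 in SFSN-Ot libraries. Kdr had 3, 2 and 5 counts in SFSN-EC, against 4, 6 and 7 in SFSN-Ot. Emcn, the sialomucin endomucin, and Aplnr, the apelin receptor, had no count in any of the 6 libraries, so their levels were not detectable at this depth in either group. Other endothelial genes were measurable: Flt1 had 4.74, 4.59 and 6.49 CPM in SFSN-EC, against 6.37, 5.12 and 4.64 CPM in SFSN-Ot, and Erg 19.3, 14.2 and 14.9 CPM in SFSN-EC, against 14.4, 17.2 and 20.2 CPM in SFSN-Ot. The libraries of the groups overlapped in both. The junction gene Cdh5 and the receptor gene Kdr thus held at most 7 counts in a library of either group, too few to give a direction. No gene of the list was called in the direction of the label of endothelial cells.

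The 2 endothelial-list genes that fell are also expressed by stromal cells. Ets1, a transcription factor of many mesodermal and lymphoid cells, had 276, 330 and 313 CPM in SFSN-EC, against 400, 412 and 366 CPM in SFSN-Ot. All 3 SFSN-EC libraries were lower (log2 fold change -0.36 ± 0.08 (SE), adjusted p = 0.0045). Esm1, endocan, had 64.0, 62.9 and 64.5 CPM in SFSN-EC, against 69.8, 73.5 and 72.2 CPM in SFSN-Ot. The groups did not overlap, by a small margin (-0.17 ± 0.05, adjusted p = 0.0445), and the call was lost when any 1 of the 6 libraries was left out, and also with the 6 libraries alone, when Ets1 was not called either. Of the genes not called, Eng, the TGF-beta co-receptor endoglin that marrow stromal cells carry, had a log2 fold change of -0.01. Flt1, a VEGF receptor, had -0.03 and the ETS factor Erg -0.10. Angpt2, a vessel-destabilizing ligand, had -0.65 at an adjusted p of 0.0693.

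A few osteoblast genes fell. Of 14 osteoblast genes 13 were tested, and 3 were lower in SFSN-EC (23.1%, against 6.73% over all genes) and none higher (edgeR; 2 higher at an unadjusted p under 0.05 and 0 with DESeq2), with a median of -0.16. Ibsp had 217, 181 and 187 CPM in SFSN-EC, against 292, 276 and 310 CPM in SFSN-Ot. Each SFSN-EC library was below each SFSN-Ot library, a fold change of 1.50 lower (-0.59 ± 0.08, adjusted p = 4.01e-05). Cdh11, the mesenchymal cadherin of osteoblasts and fibroblasts, had 932, 1051 and 1046 CPM in SFSN-EC, against 1222, 1261 and 1174 CPM in SFSN-Ot. Here too the groups did not overlap (-0.27 ± 0.05, adjusted p = 0.000508). Alpl had 355, 269 and 279 CPM in SFSN-EC, against 368, 352 and 412 CPM in SFSN-Ot. Its libraries overlapped, since SFSN-EC 1 exceeded SFSN-Ot 2 (-0.33 ± 0.10, adjusted p = 0.0307), and the call was lost without SFSN-EC 2, SFSN-EC 3, SFSN-Ot 1 or SFSN-Ot 3.

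The other osteoblast genes were not called. Col1a2, a chain of type I collagen, had 4498, 12798 and 11732 CPM in SFSN-EC, against 11834, 13620 and 10467 CPM in SFSN-Ot, so the low value of SFSN-EC 1 set the log2 fold change of -0.31. Col1a1 had -0.09, Dmp1, a matrix protein of osteocytes, -0.47 (adjusted p = 0.144) and the homeobox gene Dlx5 0.35 (adjusted p = 0.16). Bglap, osteocalcin of mature osteoblasts, had 0, 0 and 1 counts in SFSN-EC, against 3, 2 and 3 counts in SFSN-Ot, too few to test. Without SFSN-EC 1 the list had 3 genes lower and 1 higher, Ankh, a pyrophosphate transporter, and its median was 0.02, and with the 6 libraries alone 1 gene was lower.

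Adipocyte genes were higher in SFSN-EC. Of 18 on the list 17 were tested, 12 rose (70.6%, against 7.16% of all genes tested) and none fell, with a median log2 fold change of 0.64. Their summed level was 1415 to 1488 CPM in SFSN-EC, against 965 to 1007 CPM in SFSN-Ot. Angptl4 (gene ID 362850), a secreted inhibitor of lipoprotein lipase that fatty acids and PPAR receptors induce, had the highest fold change under the rule for named genes. It had 85.7, 72.6 and 78.0 CPM in SFSN-EC, against 17.2, 20.6 and 18.3 CPM in SFSN-Ot. The lowest SFSN-EC library was well above the highest SFSN-Ot library (4.21-fold, log2 2.07 ± 0.10, adjusted p = 1.73e-10). The rule took the 12 highest and the 12 lowest called genes among those whose libraries did not overlap. In these genes the separation of the libraries was thus fixed by the choice.

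Fabp4 (gene ID 79451), the fatty acid carrier of fat cells, had 187, 117 and 129 CPM in SFSN-EC, against 49.4, 33.9 and 46.9 CPM in SFSN-Ot. It was 3.32-fold higher (1.73 ± 0.20, adjusted p = 9.16e-06), with SFSN-EC 1 above the other two SFSN-EC libraries. Cd36 (gene ID 29184), a fatty acid receptor shared by fat cells, macrophages and capillaries, had 74.1, 76.8 and 66.2 CPM in SFSN-EC, against 26.7, 25.1 and 24.0 CPM in SFSN-Ot (1.52 ± 0.11, adjusted p = 2.77e-08). Aqp7, the glycerol channel of fat cells, had 14.8, 12.8 and 11.3 CPM in SFSN-EC, against 5.78, 4.65 and 4.53 CPM in SFSN-Ot (1.37 ± 0.19, adjusted p = 6.03e-05). G0s2, an inhibitor of the lipase that starts triglyceride breakdown, was at a lower level, 8.24, 6.04 and 7.16 CPM in SFSN-EC, against 1.65, 1.79 and 3.02 CPM in SFSN-Ot (1.72 ± 0.27, adjusted p = 0.000285). In none of these genes did the groups overlap, which the rule for the genes of highest fold change required of Fabp4, Cd36 and Aqp7.

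Smaller rises were found in genes of fat storage and use. Lipe, hormone-sensitive lipase, rose by 0.71 ± 0.17 on the log2 scale, and Dgat2 and Dgat1, which complete triglyceride synthesis, by 0.63 ± 0.13 and 0.30 ± 0.07. Cebpa, a transcription factor of fat cell formation, had 113, 88.8 and 86.5 CPM in SFSN-EC, against 67.0, 60.7 and 78.1 CPM in SFSN-Ot (0.49 ± 0.12, adjusted p = 0.00813). Adipoq, the hormone adiponectin, had 36.7, 26.2 and 28.2 CPM in SFSN-EC, against 21.6, 21.6 and 23.6 CPM in SFSN-Ot (0.45 ± 0.12, adjusted p = 0.017). Lpl, lipoprotein lipase, was the most abundant of these, at 652, 774 and 750 CPM in SFSN-EC, against 594, 586 and 575 CPM in SFSN-Ot (0.31 ± 0.06). Not called were Cidea at 0.93, Cidec at 0.67, Adig at 0.64, Cfd at 0.47 and Agpat2 at 0.23. SFSN-EC 1, the library that stood apart, was the highest of the 6 libraries in 9 of the 12 genes called, that is in all but Cd36, Lpl and Acsl1. Without it 10 genes rose, the median was 0.44, and Adipoq and Lipe were no longer called, and with the spread taken from the 6 libraries alone 5 genes were called.

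Immediate early genes, whose transcription starts within minutes of a stimulus and needs no new protein, were higher in SFSN-EC in part. All 21 on the list were tested, 9 rose (42.9%, against 7.16% of all genes), 2 fell (9.52%, against 6.73%) and 10 were not called, with a median of 0.29 and a summed level of 4571 to 4606 CPM in SFSN-EC, against 3215 to 3237 CPM in SFSN-Ot. Fos (gene ID 314322), a subunit of the AP-1 transcription factor, had 400, 429 and 433 CPM in SFSN-EC, against 178, 178 and 167 CPM in SFSN-Ot. The 3 libraries of each group lay close together, far from the other group (2.41-fold, 1.27 ± 0.05, adjusted p = 7.85e-11). Jun (gene ID 24516), its partner, had 469, 393 and 391 CPM in SFSN-EC, against 173, 161 and 198 CPM in SFSN-Ot (1.24 ± 0.09, adjusted p = 5.27e-08). Fosb was less even: it had 57.8, 141 and 139 CPM in SFSN-EC, against 46.2, 47.3 and 23.2 CPM in SFSN-Ot (1.54 ± 0.37, adjusted p = 0.00914). SFSN-EC 1 and SFSN-Ot 3, the libraries that stood apart, were each the lowest of their group for Fosb. Fos, Jun and Fosb were named by the rule that required the groups not to overlap.

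Btg2, an antiproliferative gene that growth factors and p53 induce, had 394, 381 and 388 CPM in SFSN-EC, against 211, 211 and 198 CPM in SFSN-Ot. The gap between the groups was many times the spread within them (0.90 ± 0.04, adjusted p = 3.58e-10). Ier2, a small nuclear immediate early protein, rose by 0.64 ± 0.09, and the zinc finger factor Egr1 by 0.56 ± 0.09. Dusp1, the phosphatase that ends MAP kinase signals, had 691, 711 and 676 CPM in SFSN-EC, against 498, 509 and 513 CPM in SFSN-Ot (0.45 ± 0.04, adjusted p = 4.03e-07). Ier3 (0.41 ± 0.06) and Junb (0.29 ± 0.09) rose less. In the other direction Fosl1, the AP-1 subunit Fra-1, had 33.6, 30.0 and 26.6 CPM in SFSN-EC, against 35.6, 41.3 and 44.8 CPM in SFSN-Ot (-0.43 ± 0.09, adjusted p = 0.00453). Klf4, a zinc finger factor of epithelia and smooth muscle, fell by 0.36 ± 0.05 on the log2 scale. Atf3 had a log2 fold change of -0.02. Without SFSN-EC 1 the list had 10 genes higher and 2 lower, and with the 6 libraries alone 6 higher and 0 lower.

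The cyclic AMP response element (TGACGTCA, the same on both strands) binds CREB and related factors and is a textbook element of immediate early promoters. RefSeq promoters (GRCr8, from 250 bases before to 50 after each gene's start) were at hand for 8 of the 11 immediate early genes that differed, and the element occurred in 3 of them, against 1.83% of 33469 promoters. The motifs and the genes printed here and further on were chosen after the values and the matches had been seen, and a match is a description of the letters. The promoters of Ier2 (chr19:40399123-40399422, + strand), Btg2 (chr13:48087641-48087940, - strand) and Dusp1 (chr10:17184603-17184902, + strand) are shown 5′ to 3′ with the element in capitals, its first base at -66, -201 and -124 from the start of the gene in that order.
Ier2: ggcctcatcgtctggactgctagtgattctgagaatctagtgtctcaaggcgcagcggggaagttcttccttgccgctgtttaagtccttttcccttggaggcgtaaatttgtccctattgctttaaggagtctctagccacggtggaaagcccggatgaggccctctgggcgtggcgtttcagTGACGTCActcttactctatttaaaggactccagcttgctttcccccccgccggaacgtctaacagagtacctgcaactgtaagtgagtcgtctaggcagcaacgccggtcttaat
Btg2: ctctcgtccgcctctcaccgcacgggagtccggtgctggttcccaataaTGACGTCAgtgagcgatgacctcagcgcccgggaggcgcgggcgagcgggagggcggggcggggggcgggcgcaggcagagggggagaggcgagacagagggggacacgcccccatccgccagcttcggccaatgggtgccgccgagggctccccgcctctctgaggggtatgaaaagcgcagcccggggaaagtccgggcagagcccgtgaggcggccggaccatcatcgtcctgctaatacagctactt
Dusp1: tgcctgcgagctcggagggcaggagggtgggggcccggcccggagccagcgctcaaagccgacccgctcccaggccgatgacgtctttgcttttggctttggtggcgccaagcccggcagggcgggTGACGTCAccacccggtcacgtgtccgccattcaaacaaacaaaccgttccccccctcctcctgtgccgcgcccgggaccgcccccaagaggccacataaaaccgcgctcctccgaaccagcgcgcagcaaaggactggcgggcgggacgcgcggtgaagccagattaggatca

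Genes of cholesterol synthesis and uptake, which SREBP2 turns on when sterols are short, were lower in SFSN-EC. All 14 were tested, 10 fell (71.4%, against 6.73% of all genes) and none rose, with a median of -0.36. Their summed level was 1426 to 1513 CPM in SFSN-EC, against 2133 to 2190 CPM in SFSN-Ot. Hmgcs1 (gene ID 29637), a synthase of the first steps of the pathway, had 282, 262 and 278 CPM in SFSN-EC, against 446, 461 and 480 CPM in SFSN-Ot (-0.75 ± 0.04, adjusted p = 8.07e-10). Insig1, the sterol-regulated protein that holds SREBP in the endoplasmic reticulum, had 90.9, 95.3 and 97.7 CPM in SFSN-EC, against 156, 161 and 170 CPM in SFSN-Ot (-0.78 ± 0.06, adjusted p = 7.54e-08). Idi1, which makes the isoprene unit used by the later steps, had 78.3, 75.2 and 78.7 CPM in SFSN-EC, against 118, 116 and 124 CPM in SFSN-Ot (-0.62 ± 0.04). In these 3 genes the libraries of a group lay close together and the groups were far apart.

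Other genes of the list fell too. Dhcr7, which makes cholesterol from its last precursor, fell by 0.44 ± 0.11 on the log2 scale, and Fdft1, squalene synthase, by 0.41 ± 0.06. Acat2, the thiolase at the start of the pathway, fell by 0.31 ± 0.09, and Fdps and the demethylase Cyp51 each fell by 0.27. Among those not called were Lss at -0.18, Hsd17b7 at -0.13 and Ebp at 0.17. Without SFSN-EC 1 Acat2 lost its call and 8 genes of the list were lower, and with the 6 libraries alone 5 were. Of 9 genes of fatty acid synthesis 2 fell (22.2%, against 6.73% of all genes tested), both desaturases. Fads2 had 23.8, 28.3 and 26.0 CPM in SFSN-EC, against 39.8, 48.4 and 41.2 CPM in SFSN-Ot (-0.73 ± 0.10), and Fads1 fell by 0.35 ± 0.06. Fasn, the fatty acid synthase itself, had 265, 310 and 320 CPM in SFSN-EC, against 297, 304 and 272 CPM in SFSN-Ot, and the libraries overlapped (adjusted p = 0.811).

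Genes of the ATF4 and amino acid response, which cells turn on when amino acids are short or the endoplasmic reticulum is stressed, split into both directions. Of 14 tested 3 rose (21.4%, against 7.16% of all genes), 8 fell (57.1%, against 6.73%) and the median was -0.24. Chac1 (gene ID 362196), an enzyme that breaks down glutathione, had 79.5, 65.9 and 69.6 CPM in SFSN-EC, against 22.9, 19.8 and 24.0 CPM in SFSN-Ot. It was 3.22-fold higher (1.69 ± 0.11, adjusted p = 1.34e-08), with no overlap, as the rule for the genes of highest fold change required. Ddit4, an inhibitor of mTOR signalling, had 65.3, 68.1 and 57.6 CPM in SFSN-EC, against 36.5, 30.5 and 27.3 CPM in SFSN-Ot (1.02 ± 0.11, adjusted p = 7.86e-06). Ddit3, the stress factor CHOP, rose by 0.54 ± 0.11.

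The members that fell were mostly enzymes that charge tRNAs with amino acids or make amino acids. Aars, the synthetase for alanine, had 429, 402 and 415 CPM in SFSN-EC, against 554, 558 and 593 CPM in SFSN-Ot (-0.45 ± 0.04, adjusted p = 3.46e-07). Iars, for isoleucine, had 164, 200 and 204 CPM in SFSN-EC, against 263, 268 and 260 CPM in SFSN-Ot (-0.48 ± 0.07). Lars, Eprs and Gars fell by 0.32, 0.29 and 0.24 on the log2 scale, so each of the 5 synthetases on the list was lower. Asns, asparagine synthetase, had 312, 294 and 291 CPM in SFSN-EC, against 377, 378 and 418 CPM in SFSN-Ot (-0.39 ± 0.06, adjusted p = 0.000163). Cth, which makes cysteine, fell by 0.63 ± 0.11 and the transaminase Gpt2 by 0.25 ± 0.07. Atf4 itself had a log2 fold change of -0.09 and was not called. Of 11 endoplasmic reticulum chaperones and their partners 2 fell (18.2%, against 6.73% of all genes tested) and none rose. Herpud1 fell by 0.41 ± 0.05 and Hsp90b1 by 0.15 ± 0.05. Without both SFSN-EC 1 and SFSN-Ot 3 the ATF4 list had 2 genes higher and 7 lower, and with the 6 libraries alone 2 higher and 4 lower.

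The composite element that ATF4 binds with C/EBP proteins (TGATGCAA, searched on both strands) was found in 3 of the 10 promoters at hand for the 11 genes that differed, against 0.795% of all promoters. These 3 are shown because Chac1 was higher and the synthetase genes Aars and Iars lower in SFSN-EC while holding the same letters. The element lies on the other strand in each and reads TTGCATCA, in capitals, with its first base at -167 in Chac1 (chr3:126795881-126796180, + strand), -112 in Aars (chr19:55908232-55908531, + strand) and -24 in Iars (chr17:15193603-15193902, - strand).
Chac1: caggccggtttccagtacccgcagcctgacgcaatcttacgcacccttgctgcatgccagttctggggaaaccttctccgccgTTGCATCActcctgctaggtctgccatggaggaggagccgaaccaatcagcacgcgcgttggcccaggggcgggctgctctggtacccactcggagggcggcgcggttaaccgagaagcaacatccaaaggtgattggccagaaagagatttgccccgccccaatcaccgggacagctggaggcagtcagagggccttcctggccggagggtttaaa
Aars: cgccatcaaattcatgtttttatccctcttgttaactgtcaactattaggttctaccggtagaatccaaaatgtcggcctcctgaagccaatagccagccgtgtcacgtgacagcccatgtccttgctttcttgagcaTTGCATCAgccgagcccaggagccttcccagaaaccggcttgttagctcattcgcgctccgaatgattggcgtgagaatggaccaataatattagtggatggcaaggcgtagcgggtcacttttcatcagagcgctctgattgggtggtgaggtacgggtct
Iars: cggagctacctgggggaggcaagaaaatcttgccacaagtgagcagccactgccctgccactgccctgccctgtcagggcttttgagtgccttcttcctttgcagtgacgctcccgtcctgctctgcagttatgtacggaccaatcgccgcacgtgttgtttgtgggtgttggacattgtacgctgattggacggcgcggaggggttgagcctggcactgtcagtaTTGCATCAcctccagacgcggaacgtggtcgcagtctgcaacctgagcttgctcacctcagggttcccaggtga

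Several genes of the circadian clock were lower in SFSN-EC. Of 9 tested 5 fell (55.6%, against 6.73% of all genes), 1 rose (11.1%, against 7.16%), and the median was -0.42. With the 6 libraries alone 3 fell. Ciart (gene ID 365871), a repressor of the clock's CLOCK and BMAL1 activators, had 1.92, 2.13 and 1.90 CPM in SFSN-EC, against 5.31, 4.17 and 6.15 CPM in SFSN-Ot. The level was low and the groups did not overlap (2.62-fold lower, -1.39 ± 0.24, adjusted p = 0.000589). Bhlhe40, a transcriptional repressor within the clock, had 138, 189 and 173 CPM in SFSN-EC, against 264, 277 and 247 CPM in SFSN-Ot (-0.65 ± 0.10, adjusted p = 0.000238), and its relative Bhlhe41 fell by 0.51 ± 0.09. Dbp, an output factor of the clock, had 15.9, 11.1 and 13.1 CPM in SFSN-EC, against 21.1, 19.1 and 24.4 CPM in SFSN-Ot (-0.69 ± 0.17). Cry2 fell by 0.42 ± 0.12 and Cry1 rose by 0.28 ± 0.07, although both are repressors of the same activators. The activators Arntl (BMAL1) and Clock had log2 fold changes of 0.12 and 0.04 and were not called. The labels give no time of day or of harvest. The E-box CACGTG, to which CLOCK and BMAL1 bind, was in 3 of the 5 promoters at hand for these 6 genes, those of Ciart, Bhlhe41 and Bhlhe40, against 6.42% of all promoters. Ciart held it at 3 places, -93, -35 and -21, shown in capitals (chr2:186112197-186112496, - strand).
Ciart: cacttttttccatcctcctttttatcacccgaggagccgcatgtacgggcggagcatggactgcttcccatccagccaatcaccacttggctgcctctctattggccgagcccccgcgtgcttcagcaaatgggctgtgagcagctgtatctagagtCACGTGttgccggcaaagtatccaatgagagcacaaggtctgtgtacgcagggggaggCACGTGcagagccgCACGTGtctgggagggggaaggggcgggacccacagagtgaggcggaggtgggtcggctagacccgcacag

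**Figure D3:**
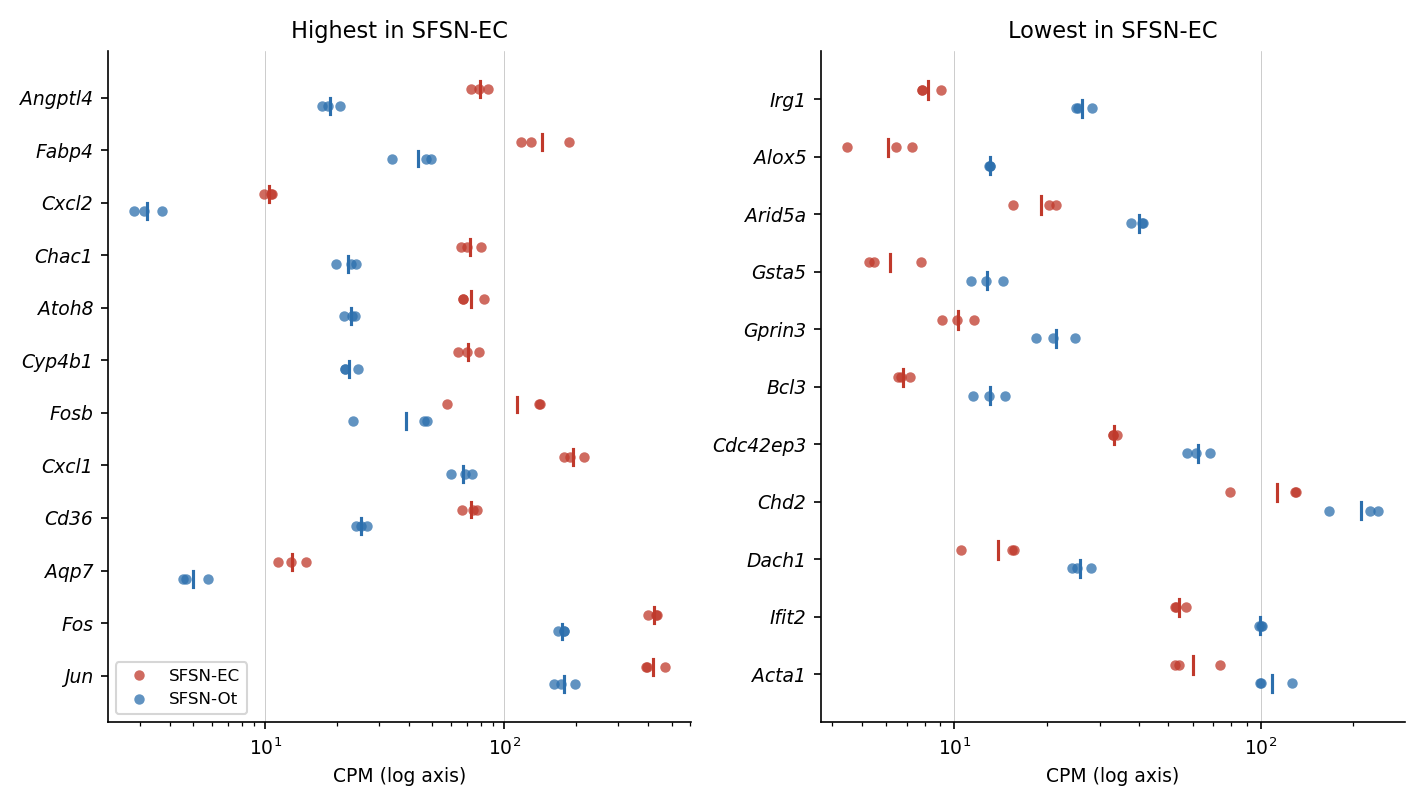
Level in CPM (log axis) of genes with the highest and lowest fold changes in each of the 6 libraries, SFSN-EC above SFSN-Ot in each row. Each point is a library and each bar the group mean. In the 12 genes of highest fold change all SFSN-EC points lie to the right of the SFSN-Ot points. In the 11 shown of lowest fold change all lie to the left. The rule by which these genes were picked required this.

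Inflammatory genes moved both ways. Of 16 cytokine genes tested 3 rose (18.8%, against 7.16% of all genes tested) and 2 fell (12.5%, against 6.73%). Their median was 0.05 (-0.07 without SFSN-EC 1). Cxcl1, a chemokine for neutrophils, had 215, 189 and 178 CPM in SFSN-EC, against 73.5, 68.2 and 59.8 CPM in SFSN-Ot (1.53 ± 0.10, adjusted p = 1.39e-08). Cxcl2, of the same family, had 10.7, 9.85 and 10.6 CPM in SFSN-EC, against 2.83, 3.10 and 3.71 CPM in SFSN-Ot (1.69 ± 0.14, adjusted p = 2.1e-07). Both are among the 12 genes of highest fold change, whose rule required that the libraries of the groups did not overlap. Ccl2, a chemokine for monocytes, fell by 0.19 ± 0.05. Interleukin 1 was split: Il1b rose by 0.60 ± 0.15 and Il1a fell by 1.17 ± 0.38 on the log2 scale with an adjusted p of 0.05 after rounding, and without SFSN-EC 1 neither was called. Irg1, the itaconate-producing enzyme of activated macrophages, had 9.03, 7.83 and 7.84 CPM in SFSN-EC, against 25.4, 24.9 and 28.1 CPM in SFSN-Ot. It had the lowest fold change under the rule for named genes (3.17-fold lower, -1.66 ± 0.11, adjusted p = 1.51e-08). Alox5, which starts leukotriene synthesis in leukocytes, had 6.43, 7.27 and 4.48 CPM in SFSN-EC, against 13, 13.1 and 13.1 CPM in SFSN-Ot (-1.11 ± 0.19). Bcl3, a nuclear partner of NF-kappaB, fell by 0.94 ± 0.15.

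Markers of macrophages and leukocytes were present in both groups and did not move as one. Of 23 on the list 22 were tested, 1 rose (4.55%, against 7.16% of all genes tested) and 4 fell (18.2%, against 6.73%). The median was -0.09 (-0.17 without SFSN-EC 1). Their summed level was 1493 to 1690 CPM in SFSN-EC, against 1529 to 1625 CPM in SFSN-Ot, so the sums overlapped. Csf1r, the receptor for the macrophage growth factor, had 109, 113 and 111 CPM in SFSN-EC, against 164, 174 and 164 CPM in SFSN-Ot (-0.59 ± 0.05, adjusted p = 1.53e-07). The actin-binding leukocyte proteins Lcp1 and Coro1a fell by 0.56 ± 0.05 and 0.62 ± 0.11, and the tetraspanin Cd53 by 0.53 ± 0.10. Lyz2, lysozyme, went the other way, at 882, 717 and 716 CPM in SFSN-EC, against 564, 532 and 621 CPM in SFSN-Ot (0.43 ± 0.09, adjusted p = 0.00203). The part of leukocytes in the differences of Irg1, Alox5, Cxcl1 and Cd36 was not tested. Of 16 interferon response genes 2 fell (12.5%, against 6.73% of all genes tested). Ifit2 had 57.0, 52.5 and 52.8 CPM in SFSN-EC, against 101, 98.6 and 99.9 CPM in SFSN-Ot (-0.89 ± 0.05, adjusted p = 1.33e-09), and Ifi44 fell by 0.38 ± 0.10. The list's median was -0.18 (-0.11 without SFSN-Ot 3).

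Signalling pathways of cell fate held called genes in both directions. In the Notch pathway 3 of 8 genes rose and 2 fell. Heyl, a transcriptional target of Notch, had 67.3, 60.4 and 62.8 CPM in SFSN-EC, against 32.8, 26.1 and 31.0 CPM in SFSN-Ot (1.08 ± 0.09, adjusted p = 2.73e-07). The targets Hes1 and Hey1 rose by 0.62 ± 0.08 and 0.45 ± 0.13, while Hey2 and the ligand Dner each fell by 0.46. In the BMP pathway 3 of 13 rose (23.1%, against 7.16% of all genes tested) and none fell. Atoh8 (gene ID 500200), a basic helix-loop-helix factor that BMP signals induce, had 82.2, 67.0 and 67.4 CPM in SFSN-EC, against 21.4, 23.8 and 23.0 CPM in SFSN-Ot (3.18-fold, 1.67 ± 0.08, adjusted p = 3.59e-10). Bambi, a decoy receptor of the family, rose by 0.68 ± 0.12 and the inhibitor of differentiation Id3 by 0.38 ± 0.11, and both medians, 0.06 for Notch and 0.03 for BMP, were near that of all genes. Without SFSN-EC 1 they were 0.10 and -0.06, and without SFSN-Ot 3 they were 0.02 and 0.09.

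Of 12 Wnt genes tested 2 rose (16.7%, against 7.16% of all genes tested) and 2 fell (16.7%, against 6.73%). The transcription factor Lef1 rose by 0.45 ± 0.09 and the receptor Fzd8 by 0.40 ± 0.07. The receptor Fzd4 fell by 0.35 ± 0.10 and Dkk3 by 0.14 ± 0.04. Among 14 targets of TGF-beta and of the mechanosensitive factor YAP 4 fell (28.6%) and 3 rose (21.4%). Their median was -0.24 and was -0.10 without SFSN-EC 1. F3, tissue factor, had 139, 126 and 136 CPM in SFSN-EC, against 214, 227 and 234 CPM in SFSN-Ot (-0.75 ± 0.05, adjusted p = 2.21e-08). Dlc1, a GTPase-activating protein, and Lats2, the kinase that restrains YAP, fell by 0.60 ± 0.08 and 0.45 ± 0.04. The related matricellular genes Ctgf and Cyr61 parted: Ctgf had 10129, 9387 and 9408 CPM in SFSN-EC, against 11429, 11434 and 12798 CPM in SFSN-Ot (-0.30 ± 0.05), and Cyr61 rose by 0.24 ± 0.07. Ajuba and Amotl2 rose by 0.36 and 0.18. Of 14 angiogenic growth factors 2 rose (14.3%), Angptl4 and Igf1 (0.26 ± 0.06), and 3 fell (21.4%). Hbegf fell by 0.39 ± 0.06, Angptl2 by 0.28 ± 0.06 and Figf, which is VEGF-D, by 0.24 ± 0.06.

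In the matrix, elastin stood out. Eln (gene ID 25043) had 344, 342 and 352 CPM in SFSN-EC, against 604, 594 and 617 CPM in SFSN-Ot. The libraries of each group lay close together and the level was 1.75-fold lower in SFSN-EC (-0.81 ± 0.05, adjusted p = 2e-09). Of 12 genes of elastic fibres and crosslinking 2 fell (16.7%, against 6.73% of all genes tested). These were Eln and, by 0.22 ± 0.05, Fbln5, which helps elastin assemble. Of 21 collagen chains 2 rose, Col6a1 by 0.15 ± 0.04 and Col6a2 by 0.14 ± 0.04, and Col3a1 fell by 0.25 ± 0.06. The shares of chains, 9.52% higher and 4.76% lower, were near those of all genes (7.16% and 6.73%). Among 13 proteases of the ADAM and ADAMTS families, which shed surface proteins and cut matrix, 3 fell (23.1%) and 2 rose (15.4%). Adamts1, which cuts proteoglycans, had 312, 381 and 399 CPM in SFSN-EC, against 593, 580 and 573 CPM in SFSN-Ot (-0.68 ± 0.08), and Adam8, a leukocyte protease, fell by 0.75 ± 0.08. Adamts8 rose by 0.58 ± 0.10, Adamts4 by 0.34 ± 0.09, and Adamts2, which trims procollagen, fell by 0.21 ± 0.04.

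Of the genes of the other named fates a minority was called. Of 13 tendon genes 3 fell (23.1%, against 6.73% of all genes tested) and Egr1 rose (7.69%, against 7.16%). Those that fell were the small leucine-rich proteoglycans Aspn (-0.39 ± 0.05), Lum (-0.30 ± 0.03) and Dcn (-0.23 ± 0.06). The median was -0.16 (-0.06 without SFSN-EC 1). Of 11 fibroblast genes 2 fell (18.2%), Has2, a hyaluronan synthase, by 0.60 ± 0.09, and Col3a1. Of 7 neuron genes tested none was called by edgeR or DESeq2 and 2 passed an unadjusted p of 0.05. Eno2, a glycolytic enzyme of neurons, had 1 SFSN-Ot library at 0.118 CPM and a log2 fold change of 1.44 at an adjusted p of 0.17. Among 11 genes of the stem cell surface and marrow niche 2 rose (18.2%, against 7.16% of all genes tested) and 2 fell (18.2%, against 6.73%). The transcription factors Ebf3 and Foxc1 rose by 0.59 ± 0.14 and 0.39 ± 0.08, and the adhesion molecules Alcam and Cd44 fell by 0.31 ± 0.08 and 0.16 ± 0.03. Of 8 smooth muscle genes 1 fell (12.5%, against 6.73% of all genes tested). This was Acta1, skeletal actin, whose coding sequence is close to those of other actins, so that the counting may share reads between them. It had 73.7, 52.5 and 54.2 CPM in SFSN-EC, against 99.2, 100 and 127 CPM in SFSN-Ot (-0.86 ± 0.15, adjusted p = 0.000875). No gene was called by edgeR or DESeq2 among 5 of chondrocytes, 3 of glia and 1 of epithelia, where 1 gene, of glia, passed an unadjusted p of 0.05, and the erythroid genes held at most 8 counts in a library.

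Growth and stress lists differed in their shares of calls. Of 29 cell cycle genes 5 rose (17.2%, against 7.16% of all genes) and none fell (2 at an unadjusted p under 0.05 and 0 with DESeq2), with a median of 0.14: Espl1, which frees sister chromatids, by 0.56 ± 0.12, the mitotic kinase Aurka by 0.34 ± 0.06, Cdc20 by 0.30 ± 0.09, the mitotic cyclin Ccnb1 by 0.25 ± 0.06 and the motor Cenpe by 0.23 ± 0.07. Without SFSN-EC 1 these were 3, and with the 6 libraries alone none was called. Of 12 p53 targets and inhibitors of cyclin-dependent kinases 2 rose (16.7%, against 7.16% of all genes tested) and 1 fell (8.33%, against 6.73%). The inhibitor Cdkn2b fell by 0.47 ± 0.05, and Aen and Gdf15 rose by 0.33 ± 0.07 and 1.09 ± 0.35, Gdf15 at no more than 3.39 CPM. Cdkn1a, p21, had 425, 353 and 352 CPM in SFSN-EC, against 298, 296 and 349 CPM in SFSN-Ot, and was not called (adjusted p = 0.0654). Of 16 genes of hypoxia and glycolysis Ankrd37 rose by 1.14 ± 0.24 and hexokinase Hk2 fell by 0.49 ± 0.12, and of 13 heat shock genes Chordc1 rose by 0.50 ± 0.05. These shares, 6.25% in each direction and 7.69% higher, were near those of all genes tested (7.16% higher and 6.73% lower). None of 17 lysosome genes was called by edgeR or DESeq2, and 1 passed an unadjusted p of 0.05.

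**Figure D4:**
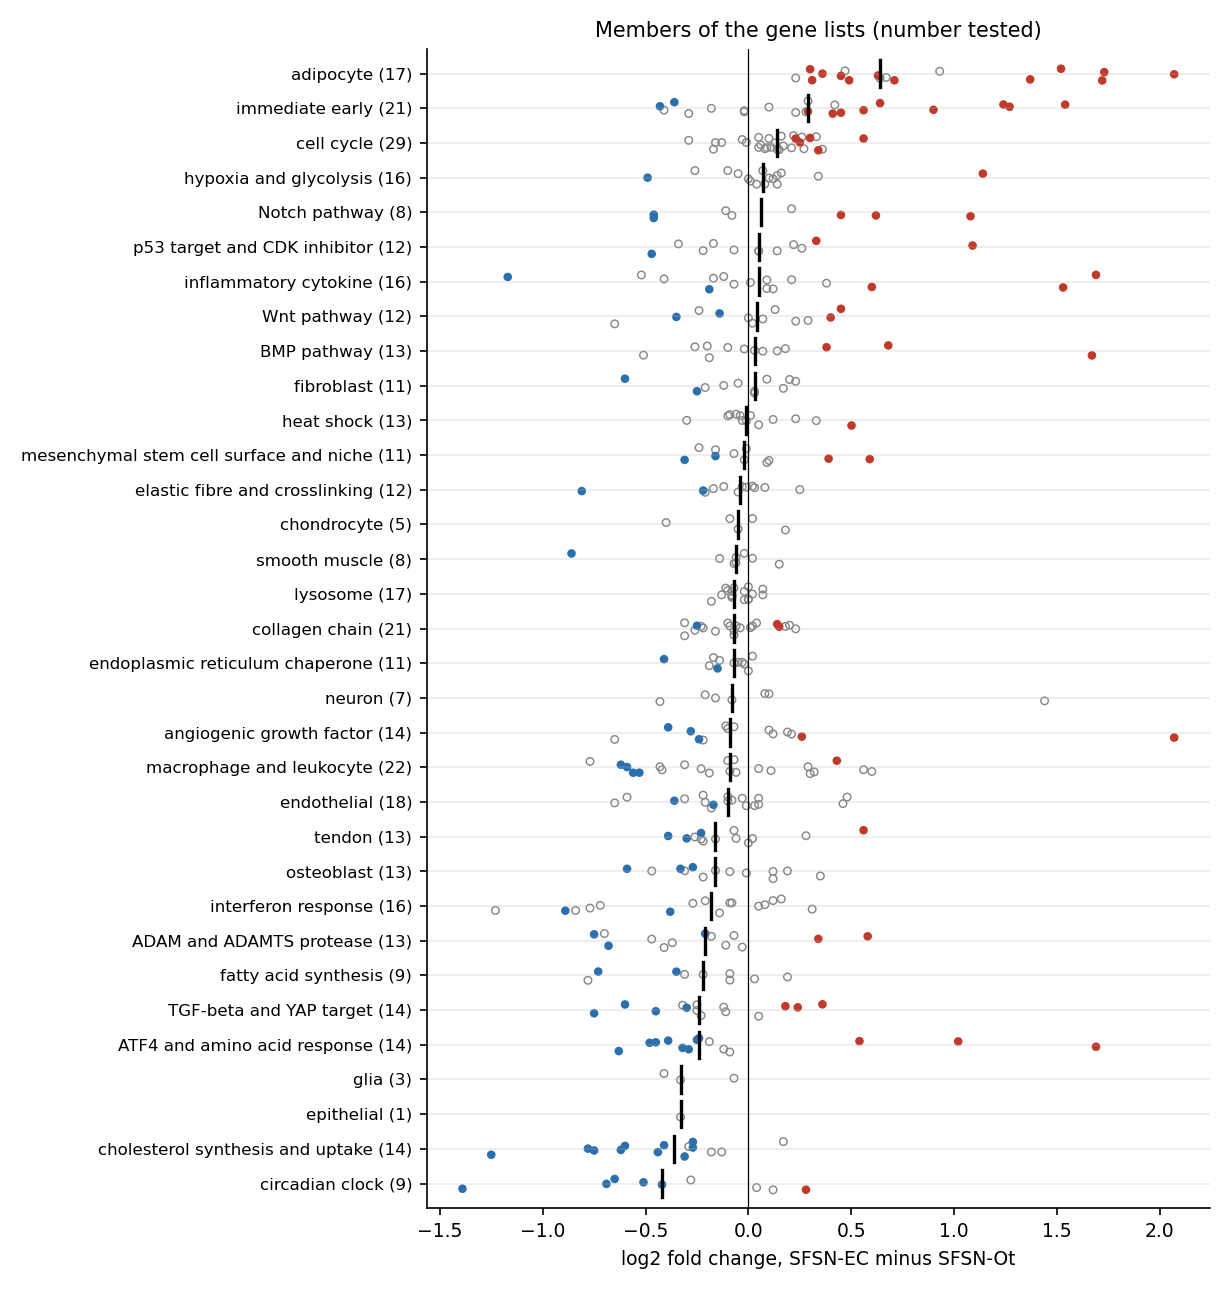
Log2 fold change SFSN-EC minus SFSN-Ot of the tested members of each of the 33 lists with tested genes, one row per list. Filled points were called and the black bar is the median. The adipocyte list lies to the right of 0 with 12 of 17 points filled, and 10 of the 14 cholesterol points are filled to the left of 0.

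A few of the genes with the lowest and highest fold changes fell in no list. Cyp4b1, a cytochrome P450 that acts on fatty acids, had 78.7, 63.7 and 69.5 CPM in SFSN-EC, against 21.5, 24.4 and 21.6 CPM in SFSN-Ot (1.65 ± 0.12, adjusted p = 2.77e-08). Arid5a, an RNA-binding protein that steadies inflammatory transcripts, had 15.5, 21.5 and 20.4 CPM in SFSN-EC, against 41.4, 37.8 and 40.9 CPM in SFSN-Ot (-1.07 ± 0.10, adjusted p = 1.24e-06). The groups did not overlap in either gene, as the rule for the genes of highest and lowest fold change required. Cdc42ep3, which binds the GTPase Cdc42, fell by 0.91 ± 0.11, Gprin3 by 1.05 ± 0.16 and the transcription factor Dach1 by 0.89 ± 0.12. Gsta5 (-1.05 ± 0.25, adjusted p = 0.00698) belongs to a family of near-identical glutathione transferases, so its value is uncertain. Chd2, a chromatin remodeller, had 79.7, 129 and 130 CPM in SFSN-EC, against 227, 242 and 167 CPM in SFSN-Ot. SFSN-EC 1 and SFSN-Ot 3 were again the lowest of their groups, and the call (-0.91 ± 0.23, adjusted p = 0.0104) was lost without SFSN-Ot 2.

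The other groups show where the levels of both groups lie within the series. The contrasts share libraries, so their values are set side by side only. SFSN-EC against Control gave 2215 calls (33.3%) and SFSN-Ot against Control 2632 (39.5%). Against the mean of the 4 remaining SFSN groups SFSN-EC gave 268 calls (4.02%) and SFSN-Ot 886 (13.3%). A call against this mean does not hold for each of the 4 groups. The genes counted next were picked by their difference between SFSN-EC and SFSN-Ot, which favours calls on these sides. All 12 genes of highest fold change were called lower in SFSN-Ot than this mean, and 7 of them were called higher in SFSN-EC. Of the 12 of lowest fold change 11 were called higher in SFSN-Ot than this mean and 5 lower in SFSN-EC. Angptl4 averaged 67.1 and 67.7 CPM in SFSN-TC and SFSN-Adipo, 17 and 25.2 CPM in SFSN-FB and SFSN-Neu and 7.56 CPM in Control, so the level of SFSN-EC was near those of SFSN-TC and SFSN-Adipo and the level of SFSN-Ot near that of SFSN-FB. Fabp4 averaged 158 and 120 CPM in SFSN-TC and SFSN-Adipo, 22.9 and 53.1 CPM in SFSN-FB and SFSN-Neu and 8.32 CPM in Control. Ibsp, the bone matrix gene, averaged 206, 284, 217 and 161 CPM in SFSN-TC, SFSN-FB, SFSN-Neu and SFSN-Adipo and 8.06 CPM in Control, and the mean of SFSN-FB was near that of SFSN-Ot. Hmgcs1 averaged 276, 388, 377 and 293 CPM in those 4 groups in the same order and 312 CPM in Control.

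**Figure D5:**
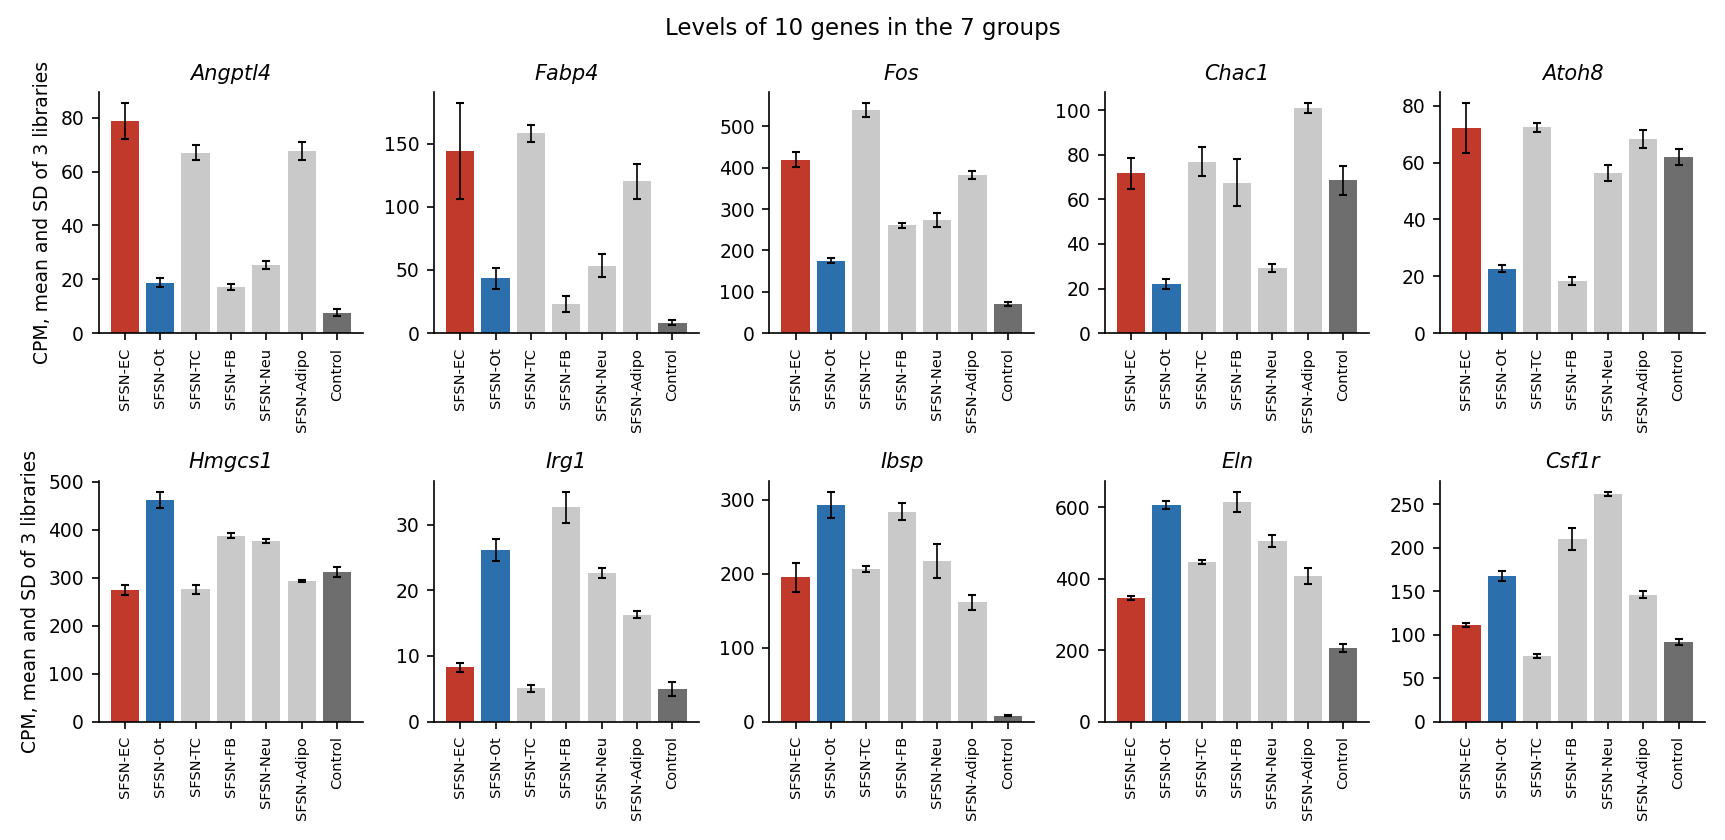
Mean level in CPM with SD (n = 3 libraries) of 10 genes in the 7 groups, SFSN-EC and SFSN-Ot first and Control last. For Angptl4 and Fabp4, SFSN-EC, SFSN-TC and SFSN-Adipo lie high and Control lowest, and for Hmgcs1 SFSN-Ot lies highest.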

How the data were processed

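RNA of 21 libraries in 7 groups of 3 was sequenced, and DNA was extracted alongside the RNA, per the labels' protocol. Reads were trimmed with SOAPnuke 2.2.1, aligned with HISAT2 2.2.1 (Rnor_6.0) and Bowtie2 2.4.5, and quantified with RSEM 1.3.1, per the submitters' processing notes. The notes name DESeq2 1.34.0 too, and the annotation's release was not stated in the labels or headers. Per the file headers, the table held for each library RSEM's expected count, TPM and FPKM values and a normalized signal that the authors divided by a library factor. The authors' expected counts were rounded to whole numbers (before rounding 84.4% of those above 0 were whole). The deposited FPKM served to derive effective gene lengths and the deposited TPM served an alternative test. A further 49 columns of values were not used. The table ran alphabetically to Map2k1, and later genes were not analysed here. Symbols turned into dates were restored for 26 genes from their gene IDs. Of the IDs 8666 matched the RefSeq table (GRCr8), from which no gene coordinates were taken other than those of promoters, with their sequences.

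Genes were filtered with filterByExpr, which left 6659 of 9998 (284 had no count in any library after rounding), and TMM factors were computed. All 21 libraries entered a quasi-likelihood fit with a mean for each group in edgeR 4.0.16 (R 4.3.3), with 14 residual degrees of freedom and a biological coefficient of variation of 11.8%. The contrast was SFSN-EC minus SFSN-Ot. The SE was taken as the log2 fold change over the root of its F statistic, and genes with a Benjamini-Hochberg adjusted p under 0.05 were called. The method was tested on simulated counts drawn gene by gene, without a deviation shared within a library such as that of SFSN-EC 1. The chi-square between replicates used genes of 20 counts or more. Alternatives were DESeq2 1.42.0, limma 3.58.1 on log2(TPM + 1) and log2(TPM + 0.1), voom with library weights, other scalings and filters, fewer libraries, a loess on gene length and the replicate number as a block.

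Members and the 34 lists (472 genes, 409 tested) were chosen with earlier results of these data known. Named by rule were the 12 highest and 12 lowest called genes averaging 10 CPM or more in the higher group with libraries that did not overlap, all endothelial and osteoblast genes and up to 4 called members of other lists. Of the candidates for the first part of the rule 47 had no gene symbol and were not named. Further called members, and the genes under other observations, were named after their values were seen. Some genes that the rule or the lists hold are counted and not reported here by name.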

Additional observations from a re-analysis of the deposited data

Results flagged for a closer look

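A set of 10 genes lay on opposite sides of Control in SFSN-EC and SFSN-Ot, each side past the threshold (adjusted p under 0.05, edgeR), and the difference between SFSN-EC and SFSN-Ot itself was also past it. The 2 contrasts share the Control libraries. With scaling by total counts the median log2 fold change of all genes against Control was 0.21 for SFSN-EC and 0.16 for SFSN-Ot, where it was 0.01 and 0.00 with TMM, so the small values below depend on TMM.

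Atoh8 averaged 72.2 CPM in SFSN-EC, 22.7 CPM in SFSN-Ot and 62.0 CPM in Control. Its log2 fold change SFSN-EC minus SFSN-Ot was 1.67, and against Control it was 0.22 ± 0.08 (SE) in SFSN-EC (adjusted p = 0.0406) and -1.45 ± 0.08 in SFSN-Ot (adjusted p = 2.35e-10). The small rise over Control was not called without SFSN-EC 1, with DESeq2, with no filter, with voom or with the gene length trend taken out. The following 3 genes of sterol and interferon response lay below Control in SFSN-EC and above it in SFSN-Ot. Insig1 (-0.78 between the groups) averaged 94.6 CPM in SFSN-EC, 162 in SFSN-Ot and 125 in Control. Hmgcs1 (-0.75) averaged 274, 462 and 312 CPM in the same order. Ifit2 (-0.89) averaged 54.1, 100 and 74.4 CPM.

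Cdc42ep3 (-0.91) averaged 33.3 CPM in SFSN-EC, 62.6 in SFSN-Ot and 47.6 in Control, and the receptor Gpr84 (-1.28) averaged 3.78, 9.18 and 5.71 CPM. The kinase inhibitor gene Cdkn2b (-0.47), the synthetase gene Aars (-0.45) and Herpud1 (-0.41) were likewise lower than Control in SFSN-EC and higher in SFSN-Ot. Against Control Cdkn2b had -0.30 in SFSN-EC and 0.17 in SFSN-Ot, Aars -0.29 and 0.16, and Herpud1 -0.18 and 0.23. Ier3 (0.41) was the reverse, at 0.25 in SFSN-EC and -0.16 in SFSN-Ot.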

How the results depend on the processing

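Every gene called kept its direction under each alternative that measured it. The 925 calls became 917 with DESeq2's size factors, 929 with total counts, 773 with no filter, 922 with a filter of 2 CPM in 3 libraries, 951 with DESeq2, 867 with the 18 SFSN libraries and 1212 with the gene length trend taken out. With the 6 libraries alone 184 genes were called, 89 higher and 95 lower, 42 of them at least 2-fold, and the counts were 5 adipocyte genes higher, 5 cholesterol, 4 ATF4, 3 circadian and 1 osteoblast gene lower, and 0 endothelial and 0 immediate early genes lower. With limma on log2(TPM + 1) 608 genes were called, 299 higher, 30 of all at least 2-fold, and on log2(TPM + 0.1) 590, 297 higher and 293 lower. With voom and library weights, which gave SFSN-EC 1 a weight of 0.123 and SFSN-Ot 3 one of 0.378, 1636 were called, 813 higher and 823 lower.

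Leaving out 1 library at a time, or SFSN-EC 1 and SFSN-Ot 3 together (chosen after seeing the data), gave 665 to 889 calls, 352 to 473 higher and 313 to 416 lower, 65 to 81 at least 2-fold. Adipocyte genes higher were then 9 to 13, cholesterol genes lower 8 to 9, immediate early genes higher 8 to 10 and lower 2, ATF4 genes higher 2 to 3 and lower 7 to 9, circadian genes lower 4 to 5 and osteoblast genes lower 2 to 3. Without SFSN-EC 1 and SFSN-Ot 3 the calls were 665, of which 598 were among the 925. The endothelial genes lower were 1 with total counts, no filter, DESeq2, limma on log2(TPM + 1), the replicate block and each library left out, 0 on log2(TPM + 0.1) and 4 with voom.

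With the 6 libraries alone 67 of 143 named genes called in the fit of all libraries were kept. The 76 that were not include Fosb, Chd2, Ets1, Alpl, Cdh11, Egr1, Cebpa, Adipoq, Lpl, Lyz2, Iars, Dbp, Ctgf, Coro1a, Cd53 and the 5 cell cycle genes. With limma 106 of 144 were kept on log2(TPM + 1) and 103 on log2(TPM + 0.1), Chd2, Ets1, Cdh11 and Lpl not among them, and 135 were kept with total counts, with no filter and with the length trend taken out. Of the 144, 125 were kept without SFSN-EC 1, 128 without SFSN-EC 2, 131 without SFSN-EC 3, 119 without SFSN-Ot 1, 119 without SFSN-Ot 2 and 129 without SFSN-Ot 3. Not called without SFSN-EC 1 were Esm1, Alcam, Il1a, Il1b, Id3, Fzd4, Cdc20, Gdf15, Col6a1, Adipoq, Lipe, Junb, Acat2, Cyr61, Cenpe, Cry2, Figf, Ereg and Cyp1a1, and without SFSN-Ot 2 all of these but Il1b and Cenpe, and Chd2, Cebpa, Hsp90b1, Ifi44, Dner, Adamts4, Gpt2 and Cry1. Alpl, Dcn, Dkk3, Hey1, Dbp, Fdps, Ccl2 and Ccl12 lost their calls when 1 or more of the other libraries were left out, and with total counts Alpl, Dcn, Dkk3 and Ccl2 did too. Against Control, Hmgcs1 and Herpud1 in SFSN-EC had log2 fold changes of 0.01 and 0.02 with total counts, and Ier3 in SFSN-Ot had 0.01 with limma on both TPM scales. The biological coefficient of variation was 14.3% with the 6 libraries alone, against 11.8% with all 21. Fewer libraries leave fewer degrees of freedom, 4 with the 6 libraries alone. The causes of these shifts were not tested.

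The deviations of same-numbered libraries from their group means correlated at -0.16, 0.18 and -0.25, and SFSN-EC 1 correlated best with SFSN-Ot 3 (0.35). With 3 libraries per group these values cannot tell whether same-numbered libraries shared a culture or batch. With the replicate block 884 genes were called, 863 of them among the 925. Genes of a few CPM, such as Cyp1a1 and Gdf15, are limited by their counts.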

Other observations

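The genes given here are in none of the lists. They were chosen after their values were seen, and their adjusted p-values are from the same edgeR test. Gpd1, which makes the glycerol backbone of triglycerides, had 69.6, 57.1 and 58.2 CPM in SFSN-EC, against 25.6, 24.3 and 31.0 CPM in SFSN-Ot (log2 fold change 1.19 ± 0.13 (SE)). It was higher in every SFSN-EC library than in any SFSN-Ot library. Acsbg1, an acyl-CoA synthetase, was lower in SFSN-EC, by 1.26 ± 0.21 on the log2 scale. Cyp26b1, which breaks down retinoic acid, had 240, 267 and 260 CPM in SFSN-EC, against 112, 102 and 117 CPM in SFSN-Ot (1.21 ± 0.07, adjusted p = 8.07e-10). Dlk2, a relative of the preadipocyte factor Dlk1, rose by 1.07 ± 0.14.

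Genes of leukocytes also moved both ways. Hpgds, the prostaglandin D2 synthase of mast cells and macrophages, had 0.677, 0.895 and 0.784 CPM in SFSN-EC, against 3.78, 3.45 and 2.55 CPM in SFSN-Ot (-2.03 ± 0.30, adjusted p = 0.000142). Ccr1, a chemokine receptor of monocytes, had 1.92, 2.24 and 1.34 CPM in SFSN-EC, against 5.19, 5.96 and 5.57 CPM in SFSN-Ot (-1.60 ± 0.29). Every SFSN-EC library was below every SFSN-Ot library in these genes. The chemokines Ccl4 and Ccl12 were higher in SFSN-EC (1.3 ± 0.23 and 1.44 ± 0.36), at no more than 5.30 CPM. Areg and Ereg, both ligands of the epidermal growth factor receptor, fell by 1.02 ± 0.23 and 1.27 ± 0.37 on the log2 scale. Cyp1a1, a target of the aryl hydrocarbon receptor, had 0.113, 0.336 and 0.784 CPM in SFSN-EC, against 1.65, 1.07 and 1.28 CPM in SFSN-Ot (-1.66 ± 0.52, adjusted p = 0.0394).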
